A study of Homo sapiens with 9 samples.

Results

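The genes described here are 39 targets and regulators of the hypoxia response and enzymes and transporters of glycolysis, chosen by name from the 59050 gene symbols of the count table. They comprise 16 hypoxia targets and regulators, the glucose transporters SLC2A1 and SLC2A3, the enzymes PFKFB3 and PFKFB4, 15 glycolytic enzymes, and 4 genes of lactate production and export. MEC1, an established cell line of chronic lymphocytic leukemia, was cultured either in 2D or printed into a 3D hydrogel scaffold, which was sampled at day 7 (3D_7d) or day 14 (3D_14d) of culture. Each of the 3 groups held 3 libraries, the labels name no treatment in any group, and all samples are labelled MEC1. The labels give no culture time for the 2D cells, so culture and time in culture cannot be told apart in comparisons with 2D. The sample titles also carry the letters PGK, which the labels do not explain, so a modification of the line cannot be told from them. RNA was extracted with TRIzol, DNase and a column from the scaffolds and with the column kit alone from the 2D cells, so culture and extraction cannot be told apart in comparisons with 2D, whereas extraction was the same at both 3D times. Nothing in the sources states that the 3 libraries of a group came from separate cultures, so p-values measure the spread between these libraries, which may be technical.

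Cells sense low oxygen through the HIF transcription factors. When oxygen is sufficient, prolyl hydroxylases of the EGLN family mark HIF-1α for destruction by the VHL ubiquitin ligase. When oxygen falls, HIF-1α accumulates as a protein and drives genes for vessel growth, pH control, mitophagy and glycolysis, so HIF1A mRNA need not follow HIF activity. In glycolysis, glucose enters through SLC2A transporters, is converted to pyruvate by a chain of enzymes, and leaves as lactate through the SLC16A transporters.

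The libraries held between 54662799 and 85968686 assigned reads. The members took 1.88% to 3.40% of the reads. B-cell genes were expressed in all groups but not at constant levels. PAX5, a B-cell transcription factor without a call, had mean levels of 46.9, 55.9 and 61.1 CPM (counts scaled to library size) in 2D, 3D_7d and 3D_14d. CD22, an inhibitory B-cell receptor, was 2.17-fold lower at 3D_7d (edgeR, adjusted p = 0.000736) and 1.63-fold lower at 3D_14d (adjusted p = 0.014) than in 2D. MS4A1, which encodes CD20, was 1.81-fold higher at 3D_7d (adjusted p = 0.00069), and CD79A and CD79B, the signalling chains of the B-cell receptor, were 2.58-fold and 2.19-fold higher at 3D_14d (adjusted p = 0.000101 and 0.00135). CD5, a surface antigen typical of this leukemia, had group means of 0.362 CPM or less, and its highest library, 2D replicate 2, was at 0.669 CPM. Of 7 T-cell markers only TRAC, a T-cell receptor constant region, passed the filter, and CD3D was at or near 0. The summed T-cell markers were at 312 to 357 CPM in 2D, 460 to 489 CPM at 3D_7d and 529 to 718 CPM at 3D_14d. The summed 6 myeloid markers were at 1.70 to 2.34, 1.18 to 2.70 and 3.88 to 5.15 CPM and the summed 6 stromal markers at 25.5 to 30.8, 15.0 to 18.1 and 15.9 to 22.3 CPM, with LYZ, CD68 and DCN at or near 0. The myeloid ITGAM and the stromal ACTA2, COL1A1 and PDGFRB passed the filter, with 2D means of 1.40, 16.9, 6.95 and 3.68 CPM. COL1A1 and PDGFRB were lower at 3D_7d than in 2D (edgeR, adjusted p = 0.0334 and 0.000339). ITGAM and PDGFRB rose between 3D_7d and 3D_14d (adjusted p = 0.0119 and 0.00481). The 3D_14d libraries spread most: the median coefficient of variation over the 38 tested members was 6.37% in 2D, 17.6% at 3D_7d and 33.6% at 3D_14d. The library 3D_14d replicate 2 was the highest of its group in 34 of 38 members. At 3D_7d, replicate 3 was the highest in 31 members and replicate 1 the lowest in 29. Results that rest on 3D_14d replicate 2 are therefore given with and without it. Ribosomal protein genes took 4.10% to 4.82% of the reads in 2D, 1.66% to 1.82% at 3D_7d and 1.88% to 3.27% at 3D_14d. The part of these genes and markers in the results was not tested.

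In the first comparison, of the scaffold at day 7 against 2D culture, most of the changed members were lower in 3D_7d than in 2D. Among the 38 tested members 17 were down-regulated and 1 was up-regulated, at an adjusted p of at most 0.05 in edgeR's quasi-likelihood test. Over all 13463 tested genes, 21.2% were down-regulated and 22.2% were up-regulated. The median log2 fold change of the members was -0.51, against -0.0039 over all genes, and 32 of 38 were below 0. The libraries of both groups did not overlap in 23 members, against 64.6% of all genes. Scaling on total counts alone would shift the median of all genes by -0.157 and lower the share of up-regulated among all called genes from 51.1% to 37.6%. The second comparison set 3D_14d against 2D. It had 5 members up-regulated and 8 down-regulated, against 19% and 17.2% of all genes, with a median of -0.24 against 0.02. Here total counts alone would shift the median of all genes by -0.206 and the share of up-regulated calls from 52.5% to 33%. Between 3D_7d and 3D_14d, 13 members rose and 2 fell, against 14.5% and 13.6% of all genes, and the median was 0.49. The libraries did not overlap in 18 members at 3D_14d against 2D (49.7% of all genes) and in 15 between the times (39.3%). The comparisons share samples, so their members' values are not independent of each other.

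**Figure D1:**
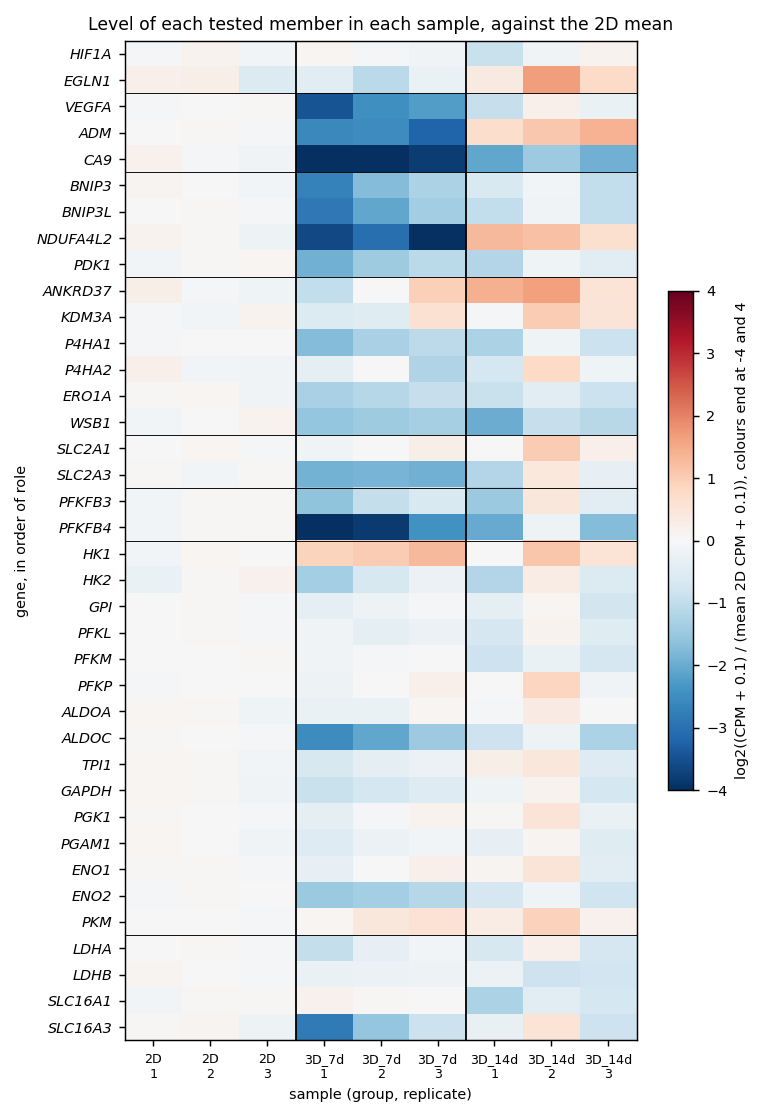
Colours give log2 of the level in CPM plus 0.1 over the mean 2D level plus 0.1, for the 38 tested members (vertical axis, in order of role) in the 9 libraries (horizontal axis). Blue cells for VEGFA, ADM, CA9, NDUFA4L2, PFKFB4 and ALDOC mark lower levels at 3D_7d, and 3D_14d replicate 2 is the highest of its group in 34 of 38 members.

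The members that were lower at 3D_7d than in 2D and rose again between the times were VEGFA, ADM, BNIP3, BNIP3L, NDUFA4L2, PDK1, SLC2A3, PFKFB4, ALDOC, ENO2 and SLC16A3. CA9 was called in the same way, but it passed the filter only through its 2D libraries, so its calls, which are among all counts given here, are a description. The other 5 members that fell at 3D_7d, P4HA1, ERO1A, WSB1, PFKFB3 and GAPDH, had no call between the times. GAPDH rose between the times by 0.69 on the log2 scale when 3D_14d replicate 3 was left out (adjusted p = 0.00781). EGLN1 was the one member that rose between the times without having fallen before.

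Of the oxygen sensors and regulators, HIF1A mRNA was at 101, 113 and 96.8 CPM in the 2D libraries, at 109, 101 and 94.0 CPM at 3D_7d, and at 55.5, 94.2 and 115 CPM at 3D_14d. The groups overlapped, and no comparison passed the threshold: the log2 fold change was -0.03 ± 0.21 (SE, adjusted p = 0.916) at 3D_7d and -0.23 ± 0.21 (adjusted p = 0.42) at 3D_14d. EGLN1, the main oxygen-sensing prolyl hydroxylase, was at 22, 22.2 and 13.0 CPM in 2D, at 14.2, 8.93 and 15.8 CPM at 3D_7d, and at 24.6, 61.3 and 32.3 CPM at 3D_14d. All 3D_14d libraries were above all others, and EGLN1 rose (adjusted p = 0.00466) between the times, to a 3.04-fold higher mean, and by 1.05 ± 0.33 (log2, SE, adjusted p = 0.0251) against 2D. The latter call did not hold without 3D_14d replicate 2 or 2D replicate 3, where the adjusted p was 0.137 and 0.118. Of the exonic bases of EGLN1, 69.3% lie in another annotated gene on the same strand, so the reads of both cannot be cleanly separated. EGLN3, a sister enzyme that is itself a HIF target, stayed under the filter with 1 to 13 reads per library and was not tested.

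The secreted factors VEGFA and ADM fell at 3D_7d and rose between the times. VEGFA (chr6:43770213-43786487, plus strand, GRCh38), which drives vessel growth, was at 99.4, 102 and 105 CPM in 2D, at 9.15, 18.7 and 21.5 CPM at 3D_7d, and at 54.3, 118 and 85.5 CPM at 3D_14d. Its level was 6.2-fold lower at 3D_7d (log2 fold change -2.63 ± 0.31, adjusted p = 5.26e-05), with no overlap between the groups. At 3D_14d it had no call against 2D (adjusted p = 0.54). Only 3D_14d replicate 2, at 118 CPM, reached the 2D levels, and the other 3D_14d libraries, at 54.3 and 85.5 CPM, lay below all 2D libraries. ADM (chr11:10305073-10307397, plus strand), a secreted peptide hormone that widens vessels, was at 3.15, 3.22 and 2.92 CPM in 2D, at 0.433, 0.457 and 0.247 CPM at 3D_7d, and at 5.06, 6.64 and 8.26 CPM at 3D_14d. The lowest levels were at 3D_7d and the highest at 3D_14d, without overlap. The ADM log2 fold change was -3.02 ± 0.34 (adjusted p = 3.34e-05) at 3D_7d, 1.10 ± 0.30 (adjusted p = 0.0117) at 3D_14d, and 4.12 ± 0.35 (adjusted p = 3.17e-05) between the times. Without 2D replicate 3 the adjusted p at 3D_14d was 0.0578. CA9, a carbonic anhydrase on the cell surface, had 0, 0 and 4 reads in the 3D_7d libraries, so no fold is given. Its level was 2.64, 2.25 and 2.13 CPM in 2D and 0.482, 0.799 and 0.540 CPM at 3D_14d. The 2D libraries alone were above 1 CPM, and both 3D groups lay below them without overlap.

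Genes of mitochondria and mitophagy all fell at 3D_7d. BNIP3 and BNIP3L, receptors that mark mitochondria for autophagy, had mean levels of 252 ± 21.3 and 251 ± 7.34 CPM in 2D (SD, n = 3), 72.9 ± 33.5 and 63.2 ± 30.1 CPM at 3D_7d, and 175 ± 52.9 and 159 ± 57.7 CPM at 3D_14d. Their log2 fold changes at 3D_7d were -1.79 ± 0.31 (adjusted p = 0.000598) for BNIP3 and -1.99 ± 0.32 (adjusted p = 0.000361) for BNIP3L. At 3D_14d both remained below all 2D libraries without passing the threshold (adjusted p = 0.182 and 0.111). NDUFA4L2 (chr12:57234903-57240692, minus strand), a HIF-induced relative of a subunit of the respiratory chain, was at 9.15, 8.55 and 7.22 CPM in 2D, at 0.588, 0.950 and 0.304 CPM at 3D_7d, and at 20.4, 18.9 and 13.0 CPM at 3D_14d. It was 13.5-fold lower at 3D_7d (adjusted p = 1.12e-05) and 2.1-fold higher at 3D_14d (adjusted p = 0.0146) than in 2D. Without 2D replicate 2 or 3 the adjusted p at 3D_14d was 0.052 and 0.0728. Of all 13463 genes, NDUFA4L2 ranked 6 and ADM ranked 12 by p between the times. PDK1, a kinase that inhibits pyruvate dehydrogenase, fell by 1.43 ± 0.26 on the log2 scale at 3D_7d (adjusted p = 0.000835) and rose by 0.90 ± 0.26 between the times (adjusted p = 0.0204). The PDK1 call between the times was lost without 3D_7d replicate 1 or 2 or 3D_14d replicate 2 or 3 (adjusted p from 0.0564 to 0.07).

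**Figure D2:**
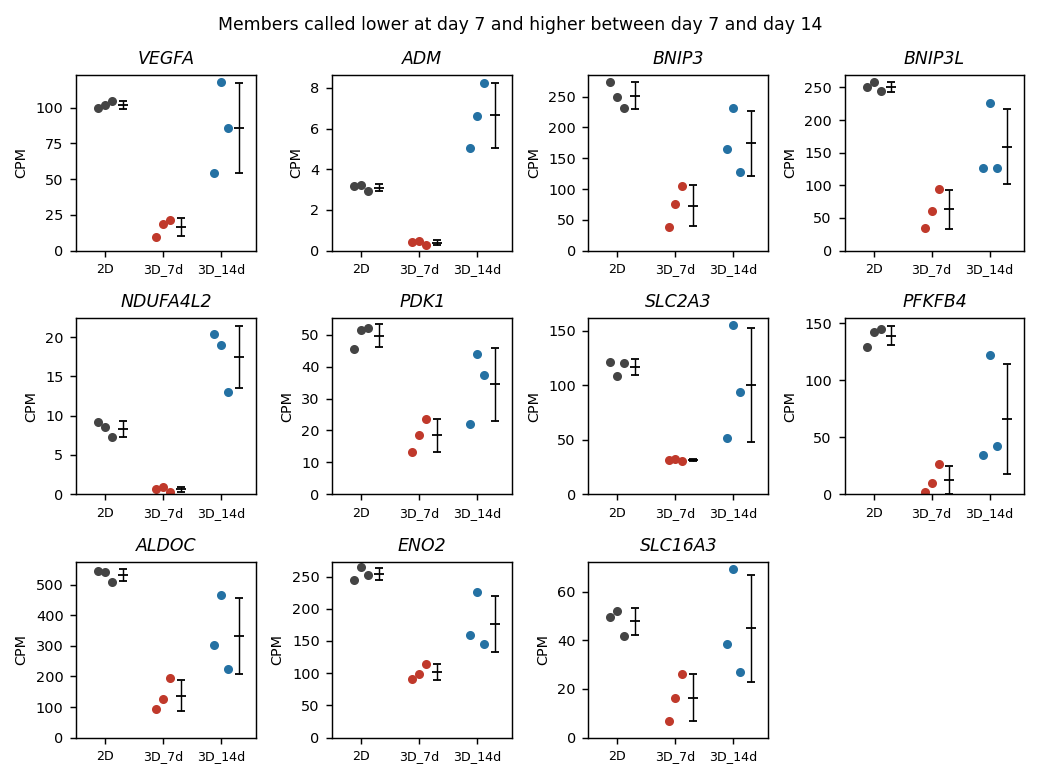
Points give the level in CPM (vertical axis, from 0) of 11 members in each library of 2D, 3D_7d and 3D_14d (horizontal axis), and black marks the mean ± SD of 3 libraries. CA9 is left out because 2 of its 3D_7d libraries are at 0. VEGFA lies between 99.4 and 105 CPM in 2D, between 9.15 and 21.5 CPM at 3D_7d and between 54.3 and 118 CPM at 3D_14d.

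P4HA1, which hydroxylates collagen, ERO1A, an oxidase of protein folding, and WSB1, part of a ubiquitin ligase, were lower than 2D at both times without overlap. Their log2 fold changes were -1.33, -1.11 and -1.43 at 3D_7d and -0.69, -0.71 and -1.27 at 3D_14d, with adjusted p of 0.00101, 0.000234 and 0.000332 and of 0.0421, 0.00508 and 0.000974 respectively. The P4HA1 call at 3D_14d was lost without any one of the 2D replicates or of 3D_14d replicates 1 and 3 (adjusted p from 0.0669 to 0.123). ANKRD37, a small ankyrin repeat protein, was at 23.4, 18.9 and 17.8 CPM in 2D, at 10.1, 19.8 and 38.6 CPM at 3D_7d, and at 54.1, 62.1 and 29.6 CPM at 3D_14d. It rose by 1.28 ± 0.39 (adjusted p = 0.0216) at 3D_14d, but not without 3D_14d replicate 2 or 2D replicate 2 or 3 (adjusted p from 0.074 to 0.0883). Exons of another gene on the opposite strand cover 54.7% of its exonic bases. KDM3A, a histone demethylase, and P4HA2, which hydroxylates collagen, had no call, with mean levels of 59.2 and 9.54 CPM in 2D, 57.4 and 6.94 CPM at 3D_7d, and 87.2 and 10.2 CPM at 3D_14d. Across all 15 tested hypoxia targets and regulators, 10 fell at 3D_7d, against 21.2% of all genes, with a median log2 fold change of -1.43. None rose, by edgeR (where 22.2% of all genes rose), by DESeq2, or at an unadjusted p under 0.05. At 3D_14d 4 were higher and 4 lower than in 2D, against 19% and 17.2% of all genes. Between the times 8 rose, against 14.5% of all genes. Without 3D_14d replicate 2 these counts were 2 higher and 5 lower than in 2D, and 7 that rose between the times. Without 2D replicate 2 they were 2 higher and 2 lower, and without 2D replicate 3 all 4 higher genes lost the call (adjusted p from 0.0578 to 0.118) and 2 were lower. Without 2D replicate 1, 2 were lower. Whenever a 2D library was left out, CA9 no longer passed the filter, so it left these counts of lower genes. Without 3D_14d replicate 1, 12 rose between the times.

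**Figure D3:**
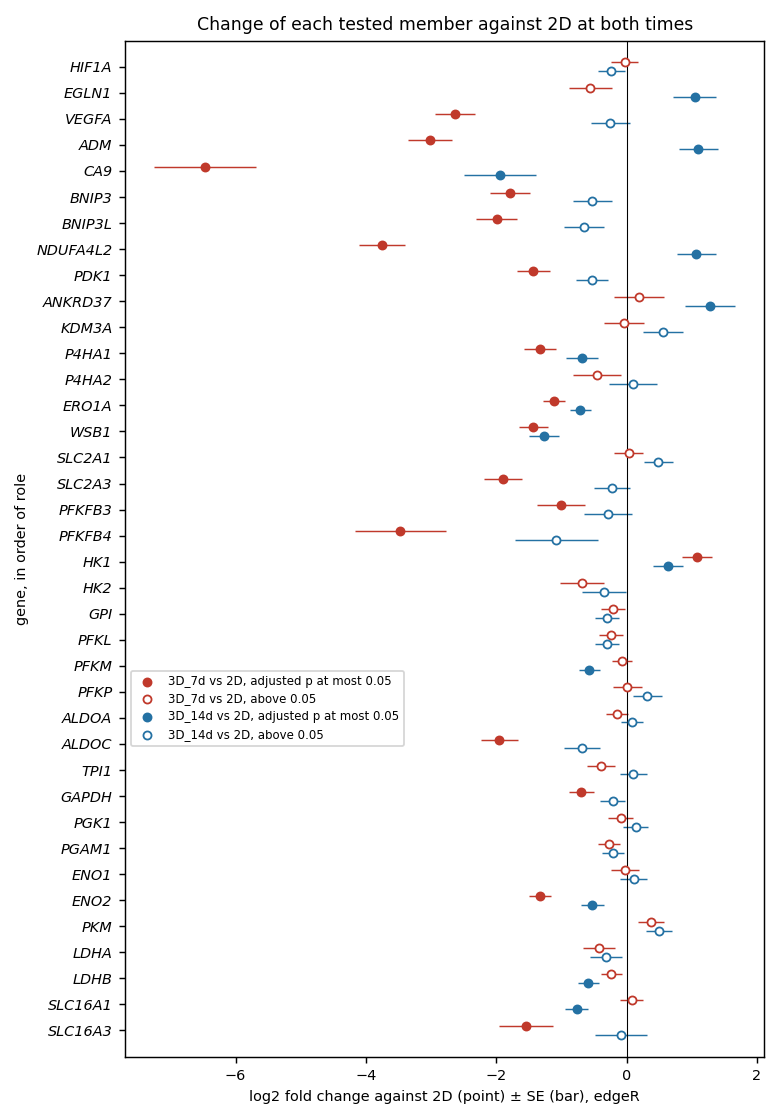
Points give the log2 fold change against 2D (horizontal axis) of the 38 tested members (vertical axis) at 3D_7d (red) and 3D_14d (blue), with bars of ± SE, and filled points mark an adjusted p of at most 0.05. Red filled points lie left of 0 for 17 members and right of 0 for HK1, and ADM and NDUFA4L2 lie left of 0 at 3D_7d and right of it at 3D_14d.

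HIF binds the core letters ACGTG or GCGTG. To show where these letters lie, 300-base promoters (250 before to 50 after the start) of RefSeq on GRCh38.p14 were searched on both strands. The letters CACGTG were counted as 2 overlapping matches. Of 39 members, 34 had at least 1 entry, with 62 promoters in all. VEGFA, BNIP3L, NDUFA4L2 and SLC2A3, which fell at 3D_7d, and SLC16A1, which had no call there, had no entry and were not searched. At least 1 match was found in 42 of these 62 (67.7%) and in 48.4% of all 35116 promoters. Counted by gene over any of its promoters, matches occurred in 13 of 13 searched members, out of 17 that fell at 3D_7d. They occurred in 17 of 19 searched members without a call there. The share over all genes was 52.4%, and genes with more listed promoters have more chances to hold a match. ACGTG alone occurred in 11 of 13, 10 of 19 and 24.9%, respectively. A match is a string of letters, not a binding site. The stretches below lie before the start and outside the annotated exons of the gene, are written 5′ to 3′ on the strand of the gene, and carry the matches in capitals. They show members that fell at 3D_7d and rose by 3D_14d, with CA9 among them under the limit given above, followed by LDHA and PGK1, which are glycolytic HIF targets without a call, and ANKRD37, which was higher than 2D at 3D_14d and had no call at 3D_7d or between the times.
BNIP3 (chr10:131982014-131982086, minus strand): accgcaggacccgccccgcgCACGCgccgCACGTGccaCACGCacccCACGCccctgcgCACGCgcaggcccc
ALDOC (chr17:28576979-28577145, minus strand): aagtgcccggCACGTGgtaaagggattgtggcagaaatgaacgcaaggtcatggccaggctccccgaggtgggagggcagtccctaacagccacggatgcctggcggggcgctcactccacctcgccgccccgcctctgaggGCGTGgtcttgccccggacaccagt
SLC16A3 (chr17:82228954-82229011, plus strand): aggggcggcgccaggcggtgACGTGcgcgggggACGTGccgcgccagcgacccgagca
PFKFB4 (chr3:48556945-48556989, minus strand): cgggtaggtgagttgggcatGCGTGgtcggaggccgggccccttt
ADM (chr11:10304952-10304996, plus strand): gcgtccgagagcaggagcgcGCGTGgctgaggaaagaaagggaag
CA9 (chr9:35673890-35673917, plus strand): cccagctctcgtttccaatgCACGTaca
LDHA (chr11:18394358-18394514, plus strand): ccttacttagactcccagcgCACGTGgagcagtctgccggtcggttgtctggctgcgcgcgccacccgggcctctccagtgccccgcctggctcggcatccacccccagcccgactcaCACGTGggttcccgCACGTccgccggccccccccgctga
PGK1 (chrX:78104017-78104089, plus strand): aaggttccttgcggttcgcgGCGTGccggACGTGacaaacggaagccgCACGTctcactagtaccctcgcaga
ANKRD37 (chr4:185396659-185396722, plus strand): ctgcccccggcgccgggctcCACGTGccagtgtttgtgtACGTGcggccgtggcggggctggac
BNIP3 held 6 matches in its printed stretch and ADM and PFKFB4 held 1 each. LDHA held 5 and had no call in any comparison.

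SLC2A1, the widespread glucose transporter, was at 177, 186 and 172 CPM in 2D, at 158, 177 and 211 CPM at 3D_7d, and at 179, 363 and 207 CPM at 3D_14d. The groups overlapped, and SLC2A1 had no call (log2 fold change 0.03 ± 0.22 at 3D_7d and 0.49 ± 0.23 at 3D_14d, adjusted p = 0.925 and 0.109). SLC2A3, a high-affinity transporter, was at 122, 108 and 121 CPM in 2D, at 31.1, 32.5 and 30.8 CPM at 3D_7d, and at 51.6, 156 and 93.8 CPM at 3D_14d. It was 3.72-fold lower at 3D_7d (log2 fold change -1.89 ± 0.29, adjusted p = 0.000292). At 3D_14d only replicate 2, at 156 CPM, reached the 2D levels of SLC2A3, and the other 3D_14d libraries, at 51.6 and 93.8 CPM, lay below all 2D libraries. PFKFB3 and PFKFB4 make fructose 2,6-bisphosphate, an activator of phosphofructokinase. PFKFB4 was at 129, 142 and 144 CPM in 2D, at 2.04, 9.61 and 25.9 CPM at 3D_7d, and at 34.0, 122 and 41.7 CPM at 3D_14d. Every 3D library was below every 2D library, and the log2 fold change was -3.47 ± 0.70 at 3D_7d (adjusted p = 0.00163). Between the times PFKFB4 rose by 2.40 ± 0.67 (adjusted p = 0.0185), but without 3D_14d replicate 2 the adjusted p was 0.0796 and without 3D_7d replicate 2 it was 0.0737. PFKFB3 fell by 1.00 ± 0.37 on the log2 scale at 3D_7d (adjusted p = 0.0441), a call that was lost without any one of the 2D replicates, 3D_7d replicates 1 and 2 or 3D_14d replicate 3 (adjusted p from 0.0623 to 0.14).

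Among the 15 glycolytic enzymes 1 rose and 3 fell at 3D_7d, where 22.2% and 21.2% of all genes did. With total counts alone 5 fell, and with only the 6 samples of the comparison 6 fell and 2 rose; 2 also rose without 3D_14d replicate 2. Their median log2 fold change was -0.21. HK1 (chr10:69269984-69401884, plus strand), the hexokinase of most tissues, was at 121, 137 and 133 CPM in 2D, at 241, 267 and 325 CPM at 3D_7d, and at 131, 284 and 192 CPM at 3D_14d. HK1 was 2.12-fold higher at 3D_7d without overlap (adjusted p = 0.00231). At 3D_14d the groups overlapped, and the adjusted p of 0.0457 became 0.204 without 3D_14d replicate 2; leaving out any other library except 3D_14d replicate 1 also removed this call (adjusted p from 0.0556). ALDOC, an aldolase, was at 545, 542 and 509 CPM in 2D, at 92.6, 126 and 194 CPM at 3D_7d, and at 301, 467 and 224 CPM at 3D_14d. Its log2 fold change was -1.95 ± 0.28 at 3D_7d (adjusted p = 0.000198) and -0.69 ± 0.27 at 3D_14d (adjusted p = 0.0668). ENO2, the enolase best known from neurons, fell to a mean of 101 ± 12.4 CPM at 3D_7d and 177 ± 43.1 CPM at 3D_14d from 254 ± 9.89 CPM in 2D, with adjusted p of 0.000104 and 0.0304. The ENO2 call at 3D_14d was lost without any one of the 2D replicates or of 3D_14d replicates 1 and 3 (adjusted p from 0.0503 to 0.0893). GAPDH, often used as a reference gene, was at 6600, 6498 and 5757 CPM in 2D, at 3380, 3858 and 4401 CPM at 3D_7d, and at 5581, 6879 and 3850 CPM at 3D_14d. It was 1.62-fold lower at 3D_7d (log2 fold change -0.70 ± 0.19, adjusted p = 0.0114), and in the other comparisons its log2 fold change was -0.21 (adjusted p = 0.421) against 2D and 0.49 (adjusted p = 0.076) between the times. PFKM, the muscle phosphofructokinase, fell by 0.57 ± 0.16 at 3D_14d against 2D (adjusted p = 0.0143) and by 0.50 ± 0.16 between the times (adjusted p = 0.0331). The latter PFKM call held only without 3D_7d replicate 1 or 3D_14d replicate 2 (adjusted p otherwise from 0.0515 to 0.112).

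Per length, on the RPKM scale, GAPDH had the highest level in 2D with 3846 ± 281 RPKM (SD, n = 3), followed by ENO1 with 2404 ± 114, TPI1 with 1343 ± 92.5, LDHA with 1022 ± 46.5, PKM with 954 ± 30.8 and PGK1 with 524 ± 20.4 RPKM. At 3D_7d GAPDH and ENO1 stood at 2374 ± 313 and 2360 ± 411 RPKM, so that these neighbours did not differ beyond their spread. ENO1, PGK1, PKM, TPI1, GPI, PGAM1, PFKL, PFKP, HK2 and ALDOA had no call in any comparison. The summed level of the 15 enzymes was 22676 ± 1143 CPM in 2D, 19592 ± 3001 CPM at 3D_7d and 23536 ± 6859 CPM at 3D_14d. These sums were not distinguishable (two-sided exact permutation test, p = 0.2, 1 and 0.4 for 3D_7d against 2D, 3D_14d against 2D and between the times), where 3 against 3 libraries cannot go below 0.1. The 3D_14d sums were 22838, 30717 and 17053 CPM, and replicate 2 was the highest of all 9 libraries.

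**Figure D4:**
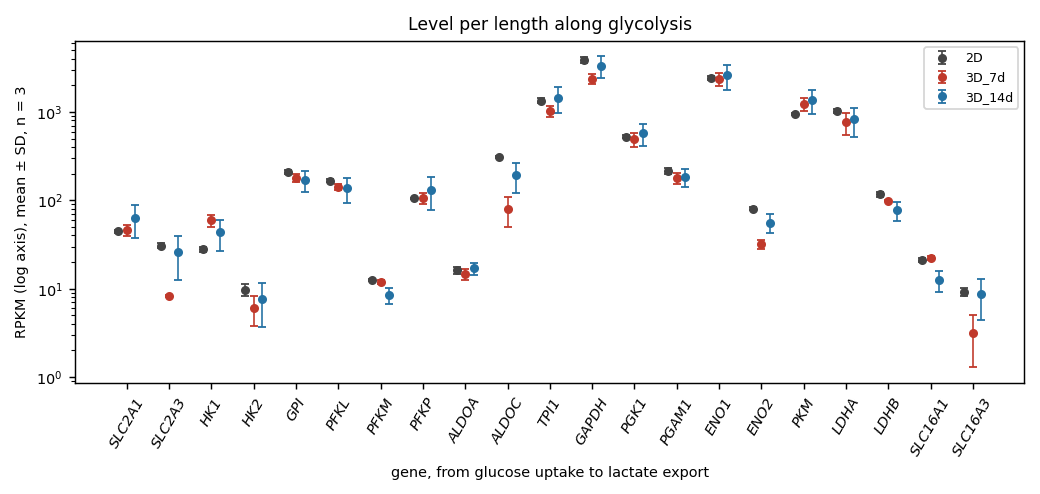
Points give the mean level per length (RPKM, log axis) and bars the SD of 3 libraries for glucose transporters, glycolytic enzymes and lactate genes (horizontal axis, in the order of the pathway) in 2D, 3D_7d and 3D_14d. GAPDH has the highest 2D level at 3846 RPKM, and ALDOC, ENO2 and SLC2A3 are lower at 3D_7d while ENO1 and PGK1 overlap.

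Several steps are served by alternative isoenzymes, and the share of HK2, ALDOC and ENO2 in its pair was lower in every 3D library than in every 2D library. By RPKM, HK2 made up 25.7% ± 1.95 (SD, n = 3) of HK1 plus HK2 in 2D, 9.06% ± 2.01 at 3D_7d and 14.5% ± 1.73 at 3D_14d. ALDOC made up 95.1% ± 0.260 of the aldolase pair in 2D, 83.9% ± 3.54 at 3D_7d and 91.4% ± 2.03 at 3D_14d. ENO2 made up 3.24% ± 0.180 of the enolase pair in 2D, 1.35% ± 0.103 at 3D_7d and 2.16% ± 0.333 at 3D_14d. For these 3 pairs the groups did not overlap in any comparison, which gave the smallest two-sided exact permutation p of 0.1 (adjusted 0.136 over 15 tests). The ALDOA count was low, at 1694 to 3614 reads, and 87.6% of its exonic bases are shared with other loci. The largest overlap is with AC093512.2 on the same strand, to which 69 to 135 reads were assigned. Adding these reads to ALDOA, an alternative chosen after seeing the data, gave a log2 ratio of ALDOC to ALDOA at 3D_7d against 2D of -1.89, where it was -1.87. Reads assigned to neither locus cannot be counted in this way, so the ALDOA level and the ALDOC share remain uncertain.

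**Figure D5:**
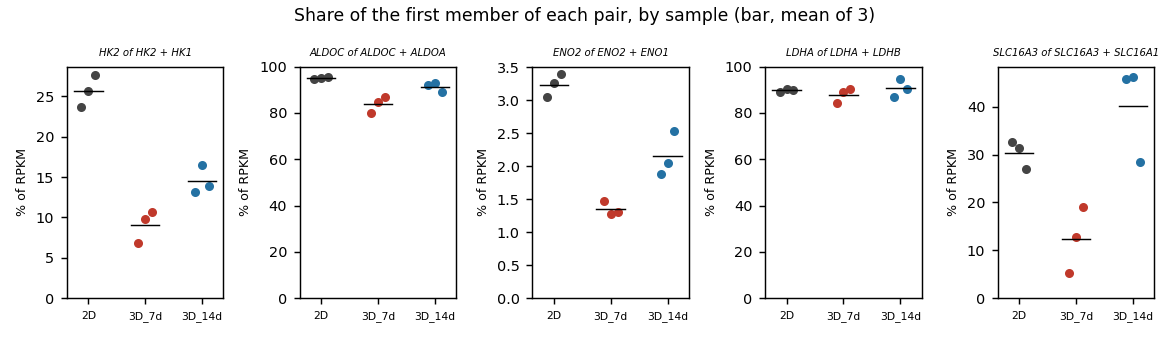
Points give the share of the first gene in the summed RPKM of each pair (vertical axes in percent, each with its own range) per library in 2D, 3D_7d and 3D_14d, and bars the mean of 3. The mean share of HK2 is 25.7% in 2D, 9.06% at 3D_7d and 14.5% at 3D_14d, whereas LDHA stays between 84.4% and 94.7% of its pair.

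LDHA, which turns pyruvate into lactate, was at 2884, 2970 and 2714 CPM in 2D, at 1464, 2294 and 2655 CPM at 3D_7d, and at 1831, 3257 and 1793 CPM at 3D_14d. The log2 fold change of LDHA was -0.42 ± 0.25 (adjusted p = 0.187) at 3D_7d, -0.32 ± 0.25 (adjusted p = 0.337) at 3D_14d and 0.10 ± 0.25 (adjusted p = 0.781) between the times. Without 3D_14d replicate 2 the value at 3D_14d was -0.65 (adjusted p = 0.0336). LDHB, the partner subunit, fell by 0.59 ± 0.16 at 3D_14d (adjusted p = 0.0139, and 0.0529 without 2D replicate 1), and 56.2% of its exonic bases are shared with another gene on the same strand. SLC16A3, the lactate exporter of glycolytic cells, was at 49.6, 52.1 and 41.7 CPM in 2D, at 6.70, 16.5 and 26.2 CPM at 3D_7d, and at 38.5, 69.2 and 26.9 CPM at 3D_14d. SLC16A3 fell by 1.54 ± 0.41 on the log2 scale at 3D_7d (adjusted p = 0.00947) and rose by 1.45 ± 0.41 between the times (adjusted p = 0.0205, but 0.0834 without 3D_14d replicate 2 and 0.0652 without 3D_7d replicate 2). SLC16A1, the widespread transporter, held at 92.4, 103 and 102 CPM in 2D and 111, 102 and 101 CPM at 3D_7d, then fell to 41.1, 72.4 and 61.1 CPM at 3D_14d. Its log2 fold change at 3D_14d was -0.77 ± 0.18 against 2D (adjusted p = 0.00593) and -0.84 ± 0.18 against 3D_7d (adjusted p = 0.00546). The share of SLC16A3 in this pair was 30.3% ± 2.96 in 2D, 12.3% ± 6.93 at 3D_7d and 40.2% ± 10.2 at 3D_14d.

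Other genes of the pathway were read from lists. Of 28 further HIF targets 23 were tested. At 3D_7d 13 fell and 3 rose, against 21.2% and 22.2% of all genes. At 3D_14d 3 fell and 2 rose, against 17.2% and 19% of all genes, and without 3D_14d replicate 2 the counts were 7 and 1. Leaving out 2D replicate 2 or 3 or 3D_14d replicate 1 or 3 left 1 that fell, and the number that rose lay between 1 and 3 over all single libraries left out. Between the times 2 fell and 11 rose, against 13.6% and 14.5% of all genes. MXI1, a MYC antagonist, fell by 2.83 ± 0.28 (adjusted p = 1.51e-05) and STC2, a secreted glycoprotein, by 3.70 ± 0.39 (adjusted p = 2.41e-05) at 3D_7d. In contrast GBE1, the glycogen branching enzyme, rose by 1.96 ± 0.19 (adjusted p = 1.36e-05) and TFRC, the transferrin receptor, with an adjusted p of 0.000292, from 114, 130 and 131 CPM in 2D to 331, 371 and 433 CPM. At 3D_14d GBE1 was still higher than in 2D, by 1.55 ± 0.19 (adjusted p = 8.15e-05). Of 13 genes of the HIF machinery 10 were tested. At 3D_7d 2 rose, 1 fell and 7 had no call, against 22.2% and 21.2% of all genes up and down. Their median log2 fold change there was 0.0018. At 3D_14d 3 rose and 1 fell, against 19% and 17.2% of all genes. Between the times 2 rose and 2 fell, against 14.5% and 13.6%. HIF1AN, the asparagine hydroxylase that blocks HIF activity, was at 40.3, 39.5 and 45.1 CPM in 2D, at 101, 125 and 117 CPM at 3D_7d and at 70.0, 72.7 and 55.9 CPM at 3D_14d. It rose by 1.45 ± 0.15 (adjusted p = 2.37e-05) at 3D_7d and by 0.67 ± 0.15 (adjusted p = 0.00428) at 3D_14d. VHL, which marks HIF-1α for destruction, fell by 0.75 ± 0.15 (adjusted p = 0.00174) and by 0.82 ± 0.15 (adjusted p = 0.00135) at the same times.

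In the pentose phosphate pathway, which branches off glycolysis to make NADPH and ribose, 3 of 6 genes rose and 1 fell at 3D_7d, against 22.2% and 21.2% of all genes. With DESeq2 size factors, with total counts alone, or without any one of the 2D or 3D_7d replicates or 3D_14d replicate 2, 2 rose. PGD rose by 0.60 ± 0.13 (adjusted p = 0.00233), while TKT fell by 0.40 ± 0.13 (adjusted p = 0.0279), a call that was lost without 2D replicate 1 or 2 or 3D_7d replicate 1 or 2. Between the times 3 of 6 fell, against 13.6% of all genes, among them PGD by 0.93 ± 0.13 (adjusted p = 0.00044). Of 11 tested genes of pyruvate entry into mitochondria 4 rose and 1 fell at 3D_7d, against the same shares of all genes, and 2 rose without 2D replicate 2 or 3D_7d replicate 3 or with total counts alone. DLAT, a subunit of pyruvate dehydrogenase, rose by 0.76 ± 0.18 (adjusted p = 0.00436). DLAT fell again by 0.88 ± 0.18 (adjusted p = 0.00417) between the times. There 4 of 11 fell, against 13.6% of all genes, or 2 without 2D replicate 2 or 3D_7d replicate 2. Of 6 tested other isoenzymes 4 rose at 3D_7d and 3 at 3D_14d, against 22.2% and 19% of all genes, and at 3D_7d only 1 or 2 rose without any one of the 2D replicates or of 3D_7d replicates 2 and 3. PFKFB2, of the same family as PFKFB3 and PFKFB4, had a low mean of 1.85 CPM in 2D. Its log2 fold change against 2D was 1.33 ± 0.33 at 3D_7d (adjusted p = 0.00576) and 1.22 ± 0.33 at 3D_14d (adjusted p = 0.0116). BPGM, which makes 2,3-bisphosphoglycerate, rose by 1.00 ± 0.14 (adjusted p = 0.000297) at 3D_14d, and ENO3, the muscle enolase, fell at both times, with the call at 3D_7d lost without 3D_7d replicate 1. Of 4 tested gluconeogenic genes 2 fell and 1 rose at 3D_7d, against 21.2% and 22.2% of all genes. At 3D_14d 3 fell and 1 rose, against 17.2% and 19% of all genes. The count of 3 was 0 without 2D replicate 3 or without a filter, and 1 without 2D replicate 1 or 2, 3D_7d replicate 3 or 3D_14d replicate 3. PCK2, the mitochondrial enzyme, fell by 0.87 ± 0.16 (adjusted p = 0.000905) and G6PC3, a glucose 6-phosphatase, rose by 1.14 ± 0.17 (adjusted p = 0.000253) at 3D_7d.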

How the data were processed

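Bulk RNA-seq was performed on 9 samples of MEC1 cells. Per the labels, libraries were made with SMART-Seq v4 from 2 ng of RNA and sequenced as single reads of 100 nt. The submitters' processing notes name Trimmomatic 0.39, STAR 2.5.3a, featureCounts 1.6.4 and GRCh38; strand and multimapping settings are not given in the sources used here. The deposited values are raw read counts per gene, with the exonic length that the authors' counting gave. Members and lists were chosen with earlier results of these data known.

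Genes with more than 1 CPM in at least 3 samples were tested (13463 of 59050 symbols) with edgeR 4.0.16 (R 4.3.3): TMM scaling, 1 quasi-likelihood model over the 3 groups, and Benjamini-Hochberg adjustment over all tested genes. SE is the absolute log2 fold change over the square root of F. CPM are TMM-scaled, and RPKM divides them by the deposited length. Sums and isoenzyme ratios (0.5 counts added) were compared by exact permutation. The test was checked on simulated counts of 3D_7d against 2D. It recovered 51.3% of the tested genes that were given a log2 change of 1, and 1.96% of its calls were false. A missing call therefore does not show that a member was unchanged. Members past the threshold, HIF1A, VEGFA, LDHA and GAPDH were named with statistics, and list genes by the smallest p per direction. Alternatives were DESeq2 1.42.0, other scalings and filters, 6-sample fits, a replicate block, a fold threshold and leaving out each library. The depth was 54662799 to 85968686 assigned reads, so 1 read is worth less than 0.1 CPM in each library.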

Additional observations from a re-analysis of the deposited data

Results flagged for a closer look

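ADM and NDUFA4L2 stood out because they were called lower than 2D at 3D_7d and higher than 2D at 3D_14d, and the difference between the times was itself tested. The log2 fold change between 3D_7d and 3D_14d was 4.12 ± 0.35 for ADM (edgeR, adjusted p = 3.17e-05) and 4.82 ± 0.36 for NDUFA4L2 (adjusted p = 1.52e-05), and all 3 libraries at 3D_14d were above all 3 at 3D_7d for both genes. Both are low: at 3D_7d ADM lay between 0.247 and 0.457 CPM and NDUFA4L2 between 0.304 and 0.950 CPM. Their calls at 3D_14d against 2D were lost without 2D replicate 3 (adjusted p = 0.0578 and 0.0728).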

How the results depend on the processing

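When single libraries were left out, 15 to 18 members were down-regulated and 1 to 2 up-regulated at 3D_7d against 2D. Whenever the library left out was from 2D, CA9 no longer passed the filter, so it left the counts of down-regulated members. At 3D_14d against 2D the counts ranged from 0 to 8 up-regulated and from 4 to 14 down-regulated, and the median from -0.53 to -0.0282. Without 3D_14d replicate 2 they were 2, 14 and -0.53. Without 2D replicate 3 the 5 up-regulated members had adjusted p of 0.0578 (ADM), 0.0728 (NDUFA4L2), 0.0883 (ANKRD37), 0.118 (EGLN1) and 0.122 (HK1). Between the times 10 to 19 members rose and 1 to 3 fell, and the median ranged from 0.18 to 0.65. Of members without a call, HIF1A ranged from -0.47 to 0.019 at 3D_14d against 2D and from -0.43 to 0.063 between the times (positive without 3D_14d replicate 1), and LDHA from -0.24 (without 3D_14d replicate 2; -0.11 without 3D_7d replicate 1) to 0.30 between the times. With total counts alone 3 members were up-regulated at 3D_14d against 2D; without a filter 13 were down-regulated there and 1 between the times; with only the 6 samples of a comparison 2 were up-regulated at 3D_7d and 1 fell between the times; and with a log2 fold change of at least 1 required, 2 were down-regulated at 3D_14d and 0 fell between the times. The causes were not tested. Leaving out single libraries turned the sign of the glycolytic sum at 3D_14d against 2D (log2 difference from -0.20 to 0.23; total counts alone also turned it) and of the LDHA to LDHB ratio at 3D_14d (from -0.15 to 0.56) and 3D_7d (from -0.40 to 0.0077) against 2D, and of no other sum or ratio. Deviations from the group means of same-numbered libraries correlated at 0.093 to 0.19 between 2D and 3D_14d, where differently numbered ones lay between -0.13 and 0.040, and each library correlated best with its own number there. In the other group pairs same-numbered libraries lay between -0.10 and -0.0052. Not every pair was above 0.1, so the numbers were not taken to pair the samples. With a replicate block, 1 member was up-regulated and 18 down-regulated at 3D_7d, 5 and 9 at 3D_14d, and 14 and 2 between the times.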
